A study of Mus musculus with 384 samples.

Results

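The 37 genes examined here act in DNA replication and mitosis, and their chromatin was read from the accessible windows of 1 mouse breast tumor. The genes were given as a list of symbols, and all 37 were found among 22350 protein-coding genes of the GENCODE vM1 annotation. The 13 replication genes were Mcm2 to Mcm7, Pcna, Rrm1, Rrm2, Tyms, Cdc6, Cdt1 and Gmnn, and the other 24 were taken as mitosis genes. Cells came from a tumor of the MMTV-PyMT mouse, in which the promoter of a mammary tumor virus drives the polyoma middle T oncogene in the mammary epithelium. They were stained for EpCAM, a protein of epithelial cells, and CD45, a protein of leukocytes, and went through Pi-ATAC, which tags open DNA with a transposase and records the stain of each single cell. The wells, 96 on each of 4 plates, formed 1 group with no stain given per well. The paper counts more CD45-positive than EpCAM-positive cells among those that passed its filter. In its stained tumor cells the CD45-positive share was the smaller, so the pooled cells need not reflect the mix in the tumor. The processed data were 1 list of 50000 windows of 500 bp, called on all cells together in build mm9, with no counts or scores. A promoter window was defined as a window with its centre within 1 kb of any annotated start site of the gene. With 1 tumor and 1 list there were no replicates, so no difference below was tested, and intervals are exact 95% intervals that cover counting error only.

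Cells that divide switch on these genes in waves. Replication genes are transcribed around the entry into S phase, when E2F factors and pocket proteins of the retinoblastoma family act through a GC-rich core that is searched for here as TTCCCGC or TTGGCGC. Mitosis genes follow in G2. The DREAM and MuvB complexes act on them through a short element called CHR (TTTGAA or TTCGAA) near the start site. CCAAT boxes, the site of NF-Y, often lie upstream of CHR. Sp1 (GGGCGG) and Ets (CCGGAAGT) words are common in promoters with many CpG and served for comparison.

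The sequences at the start sites are shown first, because the replication and mitosis genes differed most in these letters. In the 3 replication genes whose E2F word lay nearest the main start site (the one used by most protein-coding transcripts), 30 bases are printed 5′ to 3′ on the strand of the gene, with the word in capitals.
Mcm3 (chr1:20810336-20810365, minus strand): cttgggaagttTTGGCGCCAAggcggtgtc
Cdt1 (chr8:125091922-125091951, plus strand): gcgcggaatccGCGGGAActacctttttgg
Mcm5 (chr8:77633450-77633479, plus strand): gaggctggtttTTCCCGCgaaagtcggctt
The word in Cdt1 lies on the other strand, and the 10 capitals of Mcm3 hold the word on both strands.

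For mitosis genes, stretches of Aurka, Aurkb and Cenpf are printed, with CHR in capitals. Aurka and Aurkb had the CHR words nearest to the main start site, and Cenpf tied with Kif23 and Ube2c for the next place. The word lies within 2 bp of the start site in each of them, and Aurka and Aurkb had no promoter window.
Aurka (chr2:172196021-172196050, minus strand): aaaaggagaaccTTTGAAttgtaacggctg
Aurkb (chr11:68859138-68859167, plus strand): tagagcgggagaTTCGAAagcgtccgggtc
Cenpf (chr1:191511946-191511975, minus strand): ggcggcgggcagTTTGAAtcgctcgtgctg

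Longer stretches upstream show how the words combine. They were chosen after the sequences had been seen. In Ccnb2, Ube2c and Aurka the capitals mark CCAAT on either strand (ATTGG on the other strand).
Ccnb2 (chr9:70269362-70269481, minus strand): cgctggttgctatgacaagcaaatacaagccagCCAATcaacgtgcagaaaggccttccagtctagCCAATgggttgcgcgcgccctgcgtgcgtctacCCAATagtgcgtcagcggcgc
Ube2c (chr2:164595268-164595397, plus strand): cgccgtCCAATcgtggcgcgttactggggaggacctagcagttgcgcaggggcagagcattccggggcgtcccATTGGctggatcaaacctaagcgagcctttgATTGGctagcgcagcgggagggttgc
Aurka (chr2:172196036-172196155, minus strand): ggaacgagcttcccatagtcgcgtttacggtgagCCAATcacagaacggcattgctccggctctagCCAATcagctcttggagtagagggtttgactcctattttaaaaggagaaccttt
In Rrm1 and Mcm7 the capitals mark E2F and CCAAT words, and in Mcm7 these share bases. In Mki67 they mark CHR and E2F words, and that stretch holds both.
Rrm1 (chr7:109590089-109590208, plus strand): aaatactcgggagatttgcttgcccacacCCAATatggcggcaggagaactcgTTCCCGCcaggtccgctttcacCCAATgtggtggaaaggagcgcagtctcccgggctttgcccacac
Mcm7 (chr5:138613077-138613106, minus strand): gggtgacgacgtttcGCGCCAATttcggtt
Mki67 (chr7:142908063-142908182, minus strand): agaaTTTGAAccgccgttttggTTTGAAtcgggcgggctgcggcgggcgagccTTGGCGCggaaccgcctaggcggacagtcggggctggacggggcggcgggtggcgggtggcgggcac

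Most of the genes had an open promoter in the pooled cells. A promoter window was present at 30 of 37 genes (81.1%, interval 64.8% to 92.0%), against 43.5% of all protein-coding genes. It was present at 10 of 13 replication genes (76.9%, 46.2% to 95.0%) and at 20 of 24 mitosis genes (83.3%, 62.6% to 95.3%). The intervals of both groups overlapped widely, so that no difference between replication and mitosis genes was detectable with so few genes. A gene absent from the list may be open in few cells or only slightly open in many, which a pooled list cannot tell apart.

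The genes have promoters rich in CpG, and such promoters are open in most tissues. In the 1 kb around the main start site the median CpG count was 65 in replication genes and 63.5 in mitosis genes, against 41 in all protein-coding genes and 63 in those with a promoter window. When protein-coding genes were divided into 10 classes of about equal size by CpG count, the share with a promoter window went from 4.01% in the lowest to 71.6% in the highest class. Genes of the same CpG classes as the 37 would have a promoter window in 66.7% of cases. The difference was 14.3 percentage points for all 37 genes, and its interval reached from -1.89 to 25.3. For replication genes it was 10.7 points (-20.0 to 28.7, against 66.2%), and for mitosis genes 16.3 points (-4.40 to 28.2, against 67.0%). Each interval included 0, so the excess over genes of like CpG content was within counting error in these settings. For all 37 genes this call depended on the setting. The difference was 17.2 points (0.963 to 28.2) with the main start site only, 17.8 points (1.58 to 28.8) with CpG counted over 2 kb, and 19.5 points (2.15 to 31.3) over the 34 genes left without shared promoter windows.

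**Figure D1:**
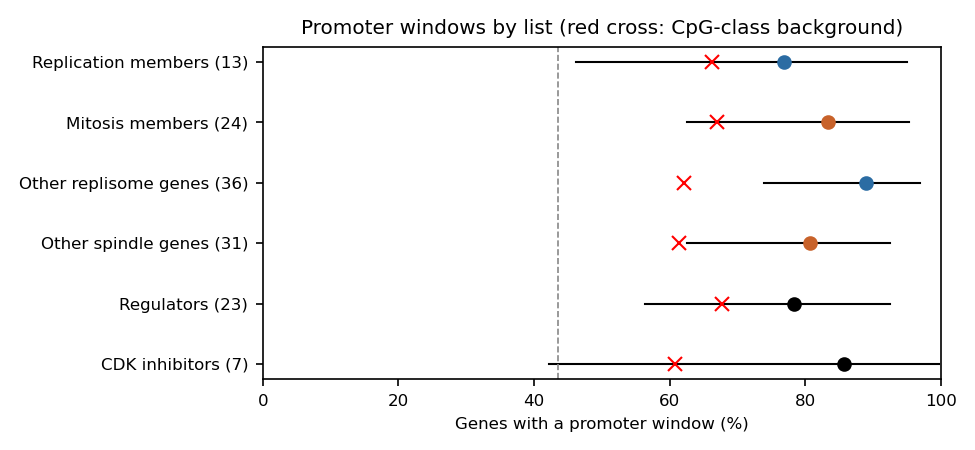
Share of genes with a promoter window (x axis, %) in the replication and mitosis genes and in 4 lists of other cell cycle genes, with the number of genes in parentheses. Points are the shares with exact 95% intervals, red crosses are the shares of protein-coding genes of the same CpG classes, and the dashed line marks 43.5% of all protein-coding genes; the replication and mitosis shares of 76.9% and 83.3% lie above their crosses, which fall within their intervals.

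Chromosomes differed in how much of the called set was kept in the list. The running numbers in the peak names gave a kept share of 23.6% to 26.5% on most chromosomes and of 41.5% to 51.8% on 7, 8, 9 and X. All 8 of the genes on those chromosomes had a promoter window (Mki67, Plk1 and Rrm1 on 7, Mcm5 and Cdt1 on 8, Ccnb2, Kif23 and Anln on 9), against 45.6% of all protein-coding genes there. The 45.6% is not matched for CpG content, and a matched share was not computed for these chromosomes alone. On the other chromosomes 22 of 29 genes (75.9%) had a promoter window, 7 of 10 replication genes (70.0%) and 15 of 19 mitosis genes (78.9%), against 42.8% of all protein-coding genes there and 63.4% of those in the same CpG classes.

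Among the genes that license and run replication, the MCM helicase was open at 5 of its 6 subunits. In the CpG classes of these subunits 62.3% to 70.4% of genes had a promoter window, so the count only describes them. Mcm2, Mcm3 and Mcm7 had a window with its centre 68.5, 46.5 and 78.5 bp upstream of the main start site, and Mcm5 had overlapping windows 78.5 and 242.5 bp upstream, both from 1 called peak. At Mcm4 the window lay inside the gene, with its centre 559.5 bp downstream of the main start site. Prkdc, a DNA repair kinase, starts 466 bp from the start site of Mcm4 on the opposite strand, but no start site of Prkdc lay within 1 kb of this window. The Mcm4 window was the farthest from a start site among the windows nearest to each of the 30 genes. Mcm6 fell just outside the limit, since its nearest window (chr1:130254664-130255163) lay in an intron of Mcm6 with the centre 1319.5 bp from the main start site and 1310.5 bp from the nearest of its start sites.

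The loading factors Cdc6 and Cdt1, which bring the helicase to origins, had windows 97.5 and 224.5 bp upstream, and Cdt1 had a further window centred 925.5 bp downstream. Gmnn, which encodes the Cdt1 inhibitor geminin, had a window centred 79.5 bp downstream of its main start site. The subunits of ribonucleotide reductase, which makes deoxynucleotides, also had promoter windows, at 18.5 bp in Rrm1 and at 63.5 and 593.5 bp in Rrm2, all downstream. Pcna and Tyms had no promoter window. Pcna, the sliding clamp of DNA polymerases, had its nearest window 2419.5 bp from any of its start sites and 5563.5 bp from the main start site, although its CpG count of 65 equalled the median of the replication genes. Tyms, which makes thymidylate, had the lowest CpG count of the 37 genes (38) and its nearest window 31497.5 bp away.

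Among mitosis genes the cyclins and their kinase were all open, where 62.3% to 70.4% of genes in their CpG classes had a promoter window. Ccnb1, Ccnb2 and Ccna2, the cyclins of G2 and mitosis, had windows centred 4.5, 12.5 and 17.5 bp from the main start site, and Cdk1, the kinase they bind, had a window centred 81.5 bp upstream. The start sites of these 4 genes lay inside the window. The spindle checkpoint kinases Bub1 and Bub1b had windows at 107.5 and 62.5 bp, and Plk1, a kinase of mitotic entry, at 137.5 bp. Cdc20 and Ube2c, an activator and the ubiquitin-conjugating enzyme of the anaphase-promoting complex, had windows 77.5 and 61.5 bp upstream.

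The genes of motors and midzone proteins named next had promoter windows as well. The share in their CpG classes was 62.3% to 70.4%. Kif11, the motor that separates spindle poles, Kif23, a motor of the midzone, and Kif20a, a motor of cytokinesis, had windows centred 220.5, 28.5 and 404.5 bp from the main start site. Anln, a scaffold of the contractile ring, had a window at 213.5 bp, and Ect2, which activates RhoA at the cleavage furrow, had a window at 157.5 bp from its main start site and 140.5 bp from its nearest start site. The spindle assembly factor Tpx2 had a window at 54.5 bp and a further window at 923.5 bp that held 1 CpG. Nusap1, a microtubule-binding protein, had its window 255.5 bp downstream. Birc5, the survivin subunit of the chromosomal passenger complex, had a window at 201.5 bp. At the kinetochore, Cenpe, a motor, and Cenpf, a large coiled-coil protein, had windows 76.5 and 130.5 bp upstream.

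Mki67, the gene of the proliferation marker Ki-67, differed in layout from the other genes. Its 2 promoter windows lay on either side of the start site at 142908062, at chr7:142908125-142908624 upstream and chr7:142907369-142907868 downstream, and neither covered the start site itself. The printed stretch with both CHR words and the E2F word lies partly under the upstream window.

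The 4 mitosis genes without a promoter window were the Aurora kinases Aurka and Aurkb, Cenpa, which encodes the histone variant of centromeres, and Top2a, the topoisomerase that untangles chromosomes. Their nearest windows lay 17682.5, 9068.5, 13974.5 and 9022.5 bp from any annotated start site of the gene, and 25086.5, 13984.5, 14083.5 and 37841.5 bp from the main start site. The median CpG count of the 7 replication and mitosis genes without a promoter window was 56, against 64 in the 30 with a promoter window. At Aurka the gap was shared by a neighbour, since Cstf1, a factor of RNA cleavage, starts 0.146 kb away on the opposite strand. Pcna likewise has a non-coding gene, AV099323, starting 0.043 kb away on the opposite strand. Aurka (70 CpG) and Mcm6 (67 CpG) belong to a class in which 69.6% of genes had a promoter window.

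**Figure D2:**
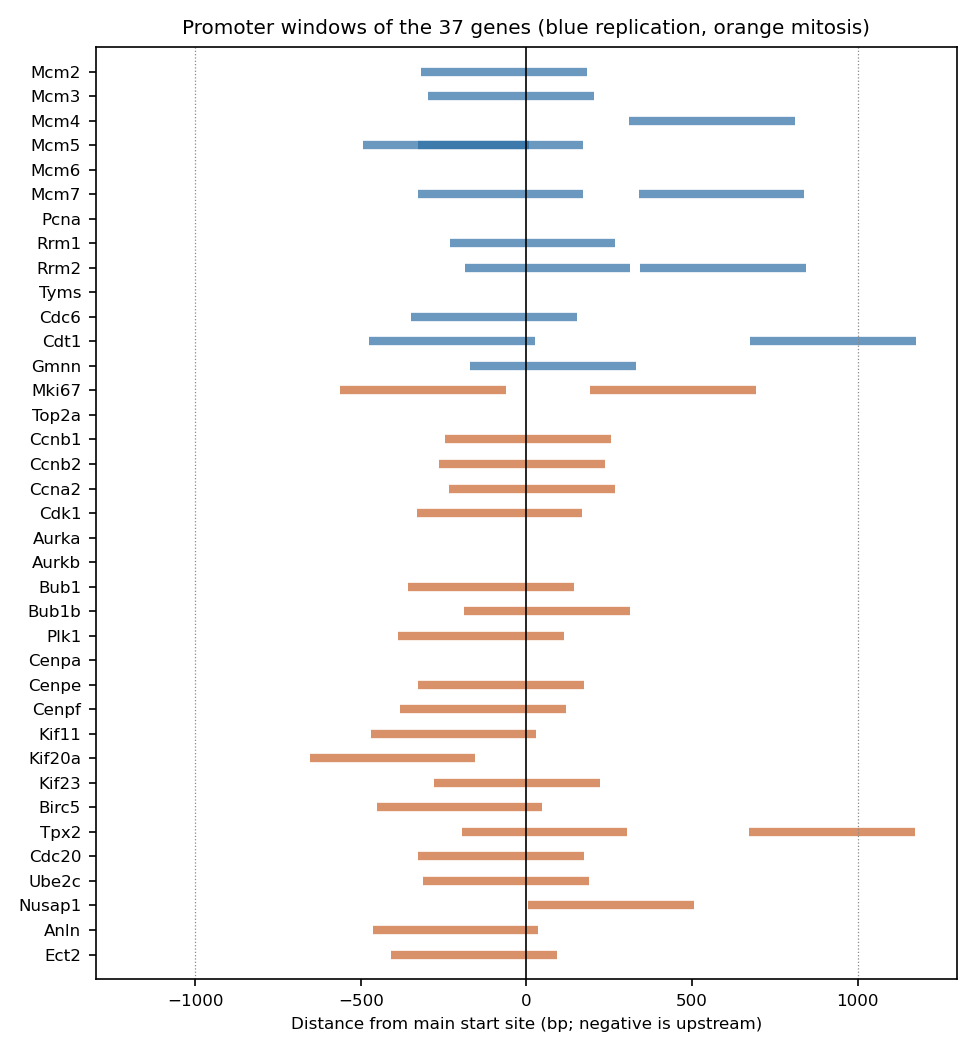
Promoter windows of the 37 genes as 500-bp bars (x axis, distance of the window from the main start site in bp, negative upstream), with replication genes in blue at the top and mitosis genes in orange. Most bars cover the start site at 0, those of Mki67 flank it, and the 7 genes without a bar are Mcm6, Pcna, Tyms, Top2a, Aurka, Aurkb and Cenpa; 1 further window of Mcm7 at an alternate start site lies outside the axis.

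Where a promoter window was present, it sat close to the start site. The centre of the nearest window lay within 250 bp of the main start site in 26 of 30 genes (86.7%), against 69.4% of all protein-coding genes with a promoter window. The exceptions were Mki67, Mcm4, Kif20a and Nusap1. The median position was -77 bp for the 30 genes (-57.5 bp for replication and -79.5 bp for mitosis genes) and -30.5 bp for all. The centre was upstream in 21 of 30 genes (70%), against 56.8% of all. The shares of all genes are not matched for CpG content, and with 30 genes no difference in position was tested.

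Several promoters had more than 1 window. Mcm5, Rrm2 and Cdt1 had 2 and Mcm7 had 3, so that 4 of 10 replication genes had at least 2, whereas Mki67 and Tpx2 were the 2 of 20 mitosis genes that did. All protein-coding genes with a promoter window had at least 2 in 33.2% of cases, so neither group can be called unusual on so few genes. Peaks called with more than 1 summit occurred at Mcm5, Mcm7 and Rrm2 and at 0 of 20 mitosis genes, against 8.87% of all. The third window of Mcm7 (chr5:138607428-138607927) lay near an alternate start site inside the gene, beside the microRNA genes Mir106b and Mir93, and held 2 CpG, while the other promoter windows of Mcm7 held 43 and 40.

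Some of these promoter windows could belong to a neighbouring coding gene. In 3 of 30 genes (10%) a promoter window also lay within 1 kb of the start site of another protein-coding gene, against 21.5% of all genes with a promoter window. These were Kif20a with Brd8, a subunit of a histone acetyltransferase complex (0.023 kb between start sites), Nusap1 with Oip5, a centromere protein (0.171 kb), and Mcm7 with Ap4m1, a subunit of an adaptor complex (0.184 kb). The share of 10% rests on few genes and was not tested against that of all. A close protein-coding partner on the opposite strand was about as frequent as elsewhere, at 5 of 37 genes (13.5%) against 12.1% of all.

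The words at the start sites differed between replication and mitosis genes. From 150 bp before to 50 bp after the main start site, on both strands, the E2F word occurred in 7 of 13 replication genes (53.8%, interval 25.1% to 80.8%) and in 3 of 24 mitosis genes (12.5%, 2.66% to 32.4%), against 6.33% of all protein-coding genes and 10.3% of those in the same CpG classes. The replication genes with the word were Mcm3, Mcm5, Mcm6, Mcm7, Rrm1, Cdc6 and Cdt1. Mki67, Ccnb1 and Ect2 were the mitosis genes with it. In Mcm7, Ccnb1 and Ect2 every E2F word shared bases with a CCAAT word, as in the printed stretch of Mcm7, so 6 replication genes and 1 mitosis gene (Mki67) had an E2F word free of CCAAT. Pcna, Rrm2, Tyms, Mcm2, Mcm4 and Gmnn had no match, which says only that these letters are not in this stretch.

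The intervals of the 2 groups overlapped for E2F and not for CHR, which showed the opposite split. It occurred in 18 of 24 mitosis genes (75.0%, interval 53.3% to 90.2%) and in 1 of 13 replication genes (Mcm2, 7.69%, 0.195% to 36.0%), against 10.3% of all protein-coding genes and 6.70% of those in the CpG classes of the mitosis genes. Within 50 bp of the start site, a distance chosen after the matches had been seen, it occurred in 17 of 24 mitosis genes and 0 of 13 replication genes, against 4.43% of all. The 6 mitosis genes without a CHR word in the whole stretch were Ccnb1, Ccna2, Cenpe, Kif20a, Tpx2 and Nusap1. A missing match says only that these letters are not in this stretch. The promoter windows of Kif20a, Tpx2 and Nusap1 held a CHR word, and those of Ccnb1, Ccna2 and Cenpe did not. Mki67 had CHR words no nearer than 93 bp to the start site. Mki67 and Ect2 had both E2F and CHR words.

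CCAAT was frequent in both groups. It occurred in 9 of 13 replication genes (69.2%) and 20 of 24 mitosis genes (83.3%), against 29.3% of all. CCAAT and CHR together occurred in 16 of 24 mitosis genes (66.7%), in 0 of 13 replication genes and in 3.33% of all. In 6 mitosis genes, Ccnb1, Ccnb2, Cdk1, Aurka, Aurkb and Ube2c, 2 CCAAT words started 30 to 35 bp apart, as the stretches printed above show for Ccnb2, Ube2c and Aurka. That was 25% of mitosis genes, 0 of the replication genes and 1.21% of all, and this spacing was looked for after the sequences had been seen.

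Sp1 and Ets words did not separate the groups. Sp1 occurred in 8 of 13 replication and 17 of 24 mitosis genes (61.5% and 70.8%), against 40.9% of all and 63.7% of genes in the CpG classes of the 37. Ets occurred in 1 of 13 and 2 of 24 genes (Tyms, Cenpf and Tpx2), against 4.41% of all and 8.29% of genes in the same CpG classes. Both counts were near those of genes with like CpG content.

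**Figure D3:**
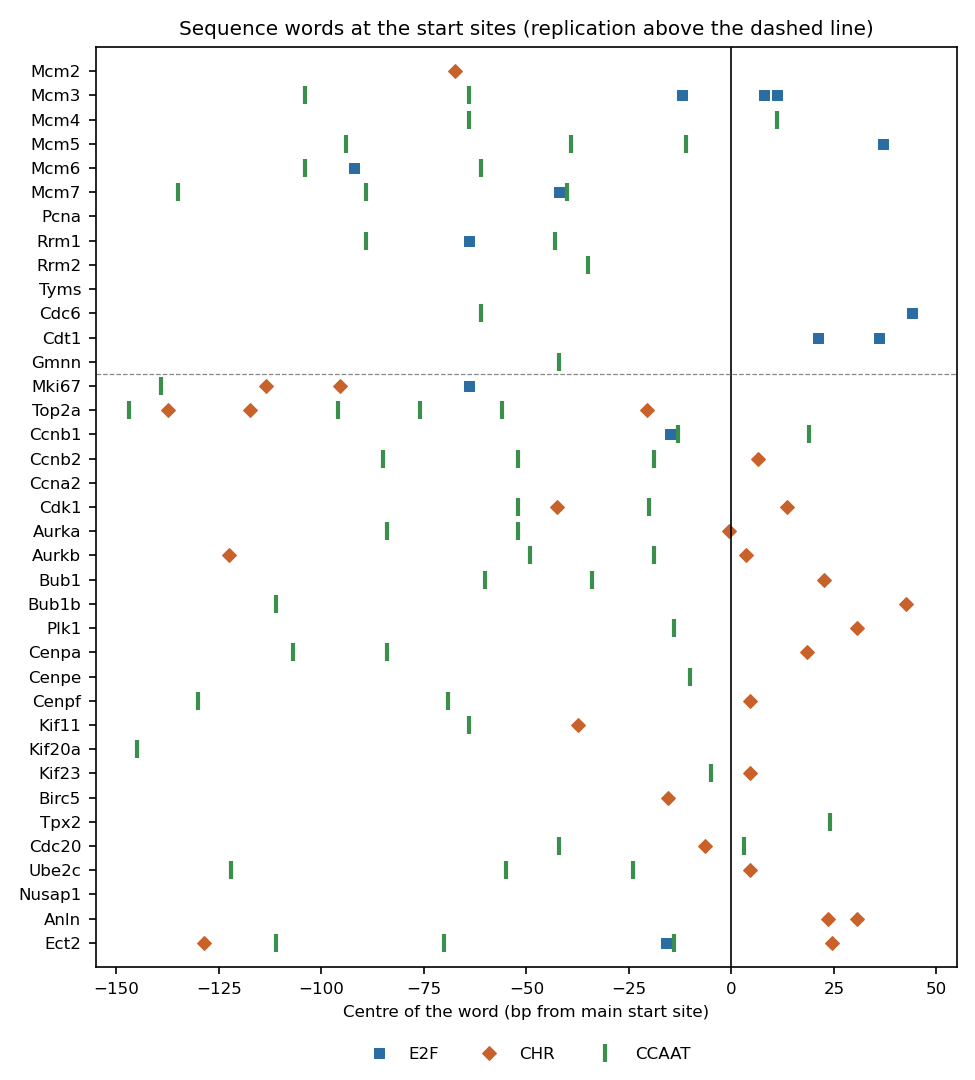
Position of E2F (blue squares), CHR (orange diamonds) and CCAAT (green bars) words from 150 bp before to 50 bp after the main start site (x axis, bp), 1 row per gene, with the 13 replication genes above the dashed line. CHR words gather within 50 bp of the start site in 17 mitosis genes, and E2F words lie mostly in replication genes.

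**Figure D4:**
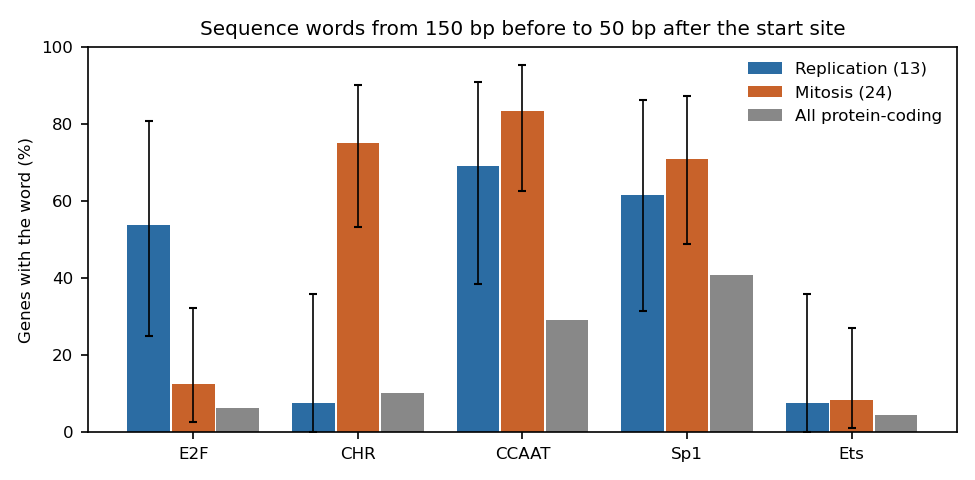
Share of genes with each word (y axis, %) in replication genes (blue), mitosis genes (orange) and all protein-coding genes (grey), with exact 95% intervals on the 2 small groups. E2F is higher in replication genes (53.8% against 12.5%), CHR in mitosis genes (75.0% against 7.69%), and the intervals of Sp1 and Ets overlap.

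The words were found in genes with and without a promoter window. CHR occurred in 15 of 30 genes with a promoter window (50%) and in 4 of 7 without (57.1%), namely Top2a, Aurka, Aurkb and Cenpa. E2F occurred in 9 of 30 with and in 1 of 7 without, which was Mcm6. Over the whole 500-bp window nearest the start site, E2F was in 70% of the 10 replication windows and in 20% of the 20 mitosis windows, against 19.3% of all promoter windows. CHR was in 85% of the mitosis windows and in 50% of the replication windows, against 19.3% of all, so the contrast in CHR was smaller in windows than at the start sites.

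Windows around the genes were counted next. All 37 had at least 1 window within 50 kb of a start site, against 84.6% of all protein-coding genes. The mean was 5.95 windows per gene (median 5, range 1 to 16), against 4.10 (median 3) for all. Replication genes had a mean of 6.62 (median 4) and mitosis genes of 5.58 (median 5). Relative to genes of the same CpG classes the mean was 1.16 times as high for all 37 (counting interval 1.02 to 1.33), 1.31 times for replication genes (1.04 to 1.61) and 1.09 times for mitosis genes (0.912 to 1.29). Without chromosomes 7, 8, 9 and X these ratios were 1.23 (1.05 to 1.44), 1.19 (0.890 to 1.56) and 1.25 (1.02 to 1.52), so that the interval of the mitosis genes and no longer that of the replication genes lay above 1. The replication genes left out were Mcm5, Cdt1 and Rrm1. The intervals treat windows as independent, although neighbouring genes share them and the counts per gene ranged from 1 to 16. They do not cover this spread between genes, so no ratio can be called above or below 1 from them. The ratios moved apart when the reach was 10 kb. They were 0.704 (0.478 to 0.999) for mitosis genes and 1.43 (0.994 to 2.00) for replication genes, and these intervals just overlap. For all 37 genes the ratio was 0.960 (0.741 to 1.22). The replication genes include Mcm5 and Cdt1 on chromosome 8, where the kept share was 51.8%, and both had several windows within 10 kb. The ratio at 10 kb was not computed without chromosomes 7, 8, 9 and X. At 100 kb it was 0.982 for mitosis genes, 1.25 for replication genes and 1.08 (0.967 to 1.19) for all 37.

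The counts were spread unevenly over the genes. Mcm5 and Cdt1 had 16 windows each on chromosome 8, one of the chromosomes with a higher kept share, and Tpx2 had 15, Cdc6 14, Top2a 11 and Cenpf 10. Cenpe and Tyms had 1 each, which at Cenpe was its own promoter window and at Tyms lay at the start sites of other genes. Many windows counted for a gene lay at its neighbours. Summed over the 37 genes, 37 windows lay at a start site of the gene itself, 57 at a start site of another gene and the other 57.3% over 1 kb from any start site. Neighbours with windows at their start sites included Hmox1, which encodes a heme-degrading stress enzyme, near Mcm5, Bcl2l1, a survival factor, near Tpx2, Rara, a retinoic acid receptor, near Cdc6 and Top2a, and Per1, a clock gene, near Aurkb. Cdc6 and Top2a lie near each other on chromosome 11, with Rara between them, and shared 7 windows, which are counted for both in the total of 220.

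**Figure D5:**
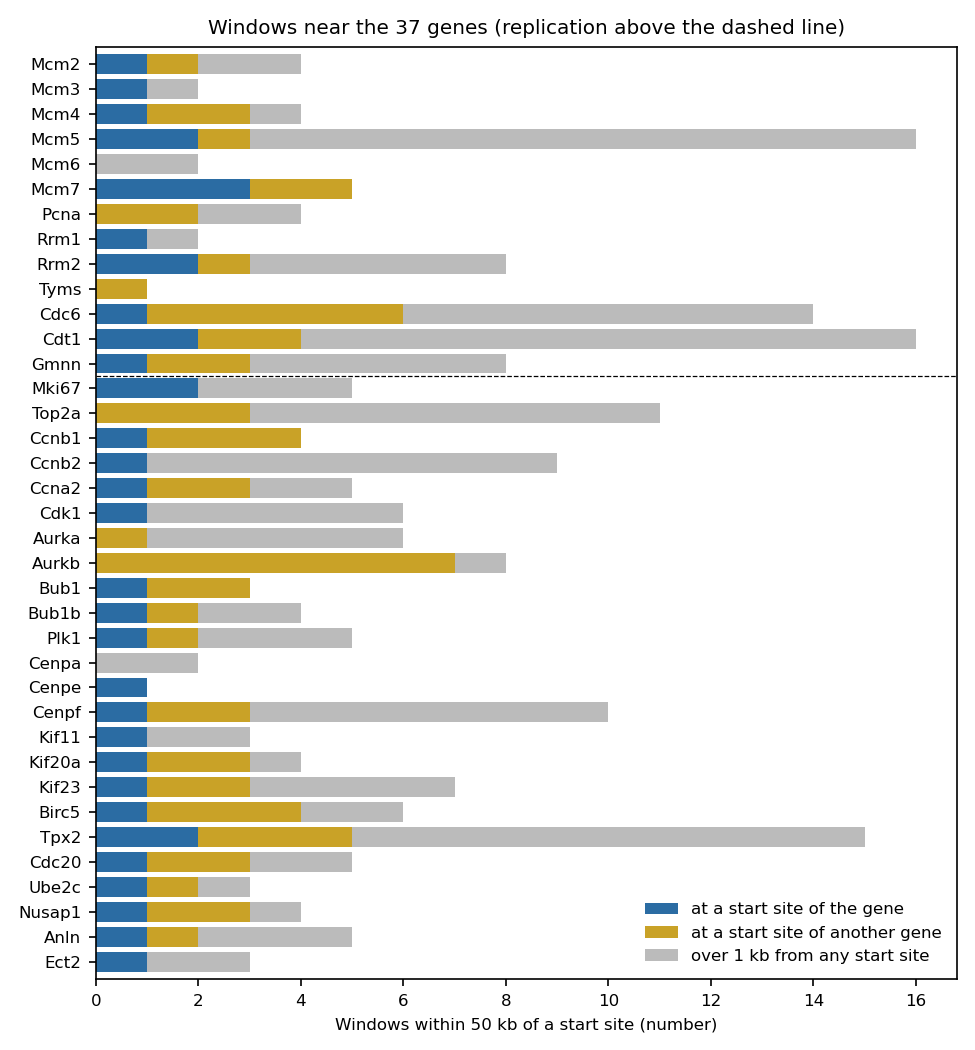
Number of windows in the 50 kb on either side of the start sites of each gene (x axis), divided into windows at a start site of the gene (blue), at a start site of another gene (yellow) and over 1 kb from any start site (grey), with replication genes above the dashed line. Mcm5 and Cdt1 have 16 each, most of them away from start sites, and Cenpe and Tyms have 1 each.

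Counting each window once, 91 (42.7%) lay at a start site, 13 in exons, 63 in introns and 46 between genes, and 35.0% of the windows near all protein-coding genes lay at a start site. AP-1, the Jun and Fos dimers of growth and stress signals, has the word TGACTCA, which reads TGAGTCA on the other strand. It occurred in 15 windows away from start sites (12.3% of them, interval 7.05% to 19.5%), against 16.5% of such windows near all protein-coding genes, which lay within the interval. The window with most AP-1 words lay between genes upstream of Mcm5 at chr8:77607607-77608106, with its centre 25570.5 bp from the start site of Mcm5, and held 3 of them. The stretch with the 3 words in capitals, on the plus strand, follows.
Mcm5 upstream window (chr8:77607830-77607933, plus strand): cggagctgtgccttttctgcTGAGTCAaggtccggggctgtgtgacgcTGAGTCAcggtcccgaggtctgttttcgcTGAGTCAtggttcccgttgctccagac
Whether this window acts on Mcm5, Hmox1 or another gene was not tested.

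Other cell cycle genes were taken from lists of their roles. Of 97 such genes, 81 (83.5%) had a promoter window, against 43.5% of all protein-coding genes, a share not matched for CpG content. Among 36 further genes of the replisome it was 32 (88.9%, interval 73.9% to 96.9%, against 62.0% in the same CpG classes), without Gins3, a subunit of the helicase complex, Pola2, a subunit of the primase polymerase, Rpa2, which binds single-stranded DNA, and Tk1, a thymidine kinase. The 3 replisome genes with most windows within 50 kb were Gins2 (14), Pold1 (11) and, with the same count of 10, Pole2 and Tk1. Gins2 lies on chromosome 8 and Pold1 on 7, where the kept share was higher. The E2F word occurred in 17 of these 36 genes (47.2%) and the CHR word in 2 (5.56%), against 53.8% and 7.69% of the 13 replication genes. Over all protein-coding genes the shares were 6.33% for E2F and 10.3% for CHR.

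Among 31 further genes of the spindle and kinetochore, 25 (80.6%, interval 62.5% to 92.5%, against 61.3%) had a promoter window. The 6 without were Cdca8, a passenger complex subunit, Pttg1 and Espl1, the securin and separase of sister chromatid separation, and the kinases Nek2, Melk and Pbk. Spc24, a kinetochore protein, had 14 windows within 50 kb, Ncapd2, a condensin subunit, had 12, and Kif4, a chromosome motor, had 10. Spc24 lies on chromosome 9 and Kif4 on X, which also had a higher kept share. CHR occurred in 20 of 31 (64.5%) and E2F in 4 (12.9%), against 75.0% and 12.5% of the 24 mitosis genes and 10.3% and 6.33% of all.

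Among 23 regulators, which are E2F factors, pocket proteins, MuvB subunits and other factors that time the cell cycle, 18 (78.3%, interval 56.3% to 92.5%, against 67.8%) had a promoter window. E2f2, E2f6, the pocket protein Rbl1, the MuvB subunit Lin9 and Foxm1, a factor of mitotic transcription, had none, and Rbl1 had 0 windows within 50 kb. E2f4, a repressive E2F, had 20 windows within 50 kb, Lin37, a MuvB subunit, had 18, and E2f8, Ccne1 and Cdk4 had 13 each. Of these, E2f4 lies on chromosome 8 and Lin37, E2f8 and Ccne1 on 7, chromosomes with a higher kept share. Cdk4 lies on 10. The E2F word occurred in 9 of these 23 genes (39.1%) and the CHR word in 3 (13.0%), against 6.33% and 10.3% of all protein-coding genes. Of the 7 CDK inhibitors, 6 (85.7%, interval 42.1% to 99.6%, against 60.8%) had a promoter window and Cdkn2d did not. The CpG-class share lay within the interval for the CDK inhibitors and the regulators, and below it for the replisome and spindle lists. These intervals cover counting error only, and no difference was tested. Cdkn1b, which encodes p27, had 12 windows within 50 kb, Cdkn2c, which encodes p18, had 9 and Cdkn2d, on chromosome 9 with its higher kept share, had 8.

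Markers of the stained cell types were set beside these genes. Promoter windows were present at 2 of 5 epithelial genes (Cdh1 and Muc1, without Epcam, Krt8 and Krt18; interval 5.27% to 85.3%). They were present at 4 of 5 leukocyte genes (Ikzf1, Coro1a, Laptm5 and Runx3, without Ptprc, the gene of CD45), with an interval of 28.4% to 99.5%. The shares in the same CpG classes, 47.3% and 31.3%, lay within these intervals, so the 2 lists cannot be ranked. Epcam had its nearest window 1254.5 bp from the main start site and 9 windows within 50 kb. For Ptprc these values were 16677.5 bp and 4 windows. Which of the stained cells the replication and mitosis windows came from cannot be told apart here.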

How the data were processed

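Pi-ATAC was performed on single cells of 1 tumor, and all wells form 1 group in the labels. The authors trimmed adapters, aligned the pairs with Bowtie2 2.1.0 (build mm9) and took out low-quality reads, mitochondrial reads and, with Picard 1.79, duplicates. They aggregated the cells, called summits at q 0.05 with MACS2, widened each to 500 bp and kept the 50000 with the lowest q. For MACS2 a version is not given in the sources. The deposited values are therefore positions, and the depth behind a window is unknown. Keeping the lowest q favours strong and deeply covered sites.

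Positions, counted from 1, were joined to GENCODE vM1 and the NCBIM37 sequence with Python 3.11.15, numpy 2.4.6, scipy 1.17.1 and pandas 2.3.3, and plotted with matplotlib 3.10.9. Genes on Y (17) were left out. A window centre falls between bases, so distances are not whole numbers. The main start site had most protein-coding transcripts starting within 50 bp. CpG background is the mean, over the genes of a group, of the value of all other protein-coding genes in the same of 10 classes of about equal size. Shares carry Clopper-Pearson and counts Poisson 95% intervals. Peak names carry running numbers, of which the last on each chromosome gave the number called, as a lower bound. The procedure was tested on simulated data.

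Members and lists were chosen with earlier results of these data known. All 37 genes are named. Of the other cell cycle genes (2 matched by an older symbol), those without a promoter window and the 3 per list with most windows within 50 kb are named, with ties. The alternatives changed the promoter distance, start sites, overlap rule, CpG classes, reach, words, stretch, chromosomes and members. Runs without Ccna2, Top2a and Mki67 and with RefSeq start sites were added after the data had been seen.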

Additional observations from a re-analysis of the deposited data

How the results depend on the processing

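Of the values under the alternatives, 95.2% stayed within the interval of the reported value, and 6 did not. Relative to the background, 7 values changed side. With a reach of 10 kb, the mean number of windows relative to the CpG background was 0.960 for the 37 genes and 0.704 for mitosis genes, while it was 1.43 for replication genes. At 100 kb it was 0.982 for mitosis genes. With an E2F word of 8 letters, 0% of mitosis genes held it (all protein-coding genes 1.51%). With a stretch extended to both sides of the start site, CHR was in 23.1% of replication genes (all 22.7%). In the 500-bp promoter window nearest the main start site, the CHR share of replication genes was 50% (all promoter windows 19.3%). There the Ets share of the 10 replication genes was 0% (all 9.96%) and the Sp1 share of mitosis genes 95% (all 74.2%). These windows are longer than the 200 bp at the start sites, and the cause was not tested.

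Among differences and ratios, 11 intervals came to include the background value or to leave it out. Those of the ratios do not cover the spread of counts between genes. For all 37 genes the promoter difference left out 0 with the main start site only, with CpG counted over 2 kb and without shared promoter windows (17.2, 17.8 and 19.5 points). The ratio of windows for the 37 genes came to include 1 with start sites of protein-coding transcripts (1.12), with the main start site only (1.13) and at 10 and 100 kb (0.960 and 1.08), as did that of replication genes at 10 kb (1.43) and without chromosomes 7, 8, 9 and X (1.19). That of mitosis genes left out 1 at 10 kb (0.704) and without these chromosomes (1.25). RefSeq start sites, placed from sequence, were available for 31 of 37 genes, and 26 lay within 50 bp of the main start site. No paired analysis was possible because all wells form 1 group and share 1 pooled list. Depth per window and per well is unknown, so a gene without a window cannot be called closed.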
